A study of Mus musculus with 6 samples.

Results

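DNA methylation and TET genes were followed in mouse bone marrow progenitor cultures that lack or carry the microRNA miR-155. The set holds 9 genes used or mutated in myeloid leukaemia: the methyltransferase genes Dnmt1, Dnmt3a and Dnmt3b, their partner Uhrf1, the oxidase genes Tet1, Tet2 and Tet3, and the isocitrate dehydrogenase genes Idh1 and Idh2. They were taken by symbol, with the brightest single-symbol row kept per gene, and 8 of the 9 were found among 14860 genes tested. Tet1 had no row under its name in the platform annotation, so its level was not analysed here. The data are 3 arrays of miR-155 knockout (miR-155 KO) cells and 3 arrays of wild-type (WT) cells. Cells of both groups came from female C57Bl/6 mice, 12 weeks old and treated with 5-FU, which kills cycling marrow cells. Both groups had been transduced with retroviral MSCV constructs for Hoxa9 (with GFP) and Meis1 (with YFP), a pair that immortalises myeloid progenitors, and were grown in DMEM with 15% FCS, IL3, SCF and IL6. There were thus no cells without the 2 transgenes, and any difference is one between genotypes that both carry them. The series' title says that the study asked whether miR-155 is needed for transformation by Hoxa9 and Meis1. The comparison here asks whether transcripts of the DNA methylation machinery differ when miR-155 is missing.

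DNA methylation in mammals sits mainly on cytosines followed by guanine (CpG). Dnmt3a and Dnmt3b place new methyl groups, and Dnmt1 copies the pattern onto the new strand after replication, brought there by Uhrf1, which reads hemimethylated DNA. The TET enzymes oxidise methylated cytosine as a step towards its removal and need 2-oxoglutarate, which Idh1 makes in the cytosol and Idh2 in mitochondria. In human acute myeloid leukaemia, DNMT3A, TET2, IDH1 and IDH2 are recurrently mutated, and mutant IDH makes 2-hydroxyglutarate, which inhibits TET enzymes.

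The RNA missing from the knockout is shown with its seed, bases 2 to 8, in capitals, since the seed is what a microRNA pairs to its targets with. The sequences are RefSeq's on GRCm38.p6, at chr16:84714143-84714165 for the 5p arm and chr16:84714182-84714202 for the 3p arm, both on the + strand.
mmu-miR-155-5p: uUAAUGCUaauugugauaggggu
mmu-miR-155-3p: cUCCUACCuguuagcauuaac
No transcript sequence was used here, so seed matches in the 9 genes were not looked for. No row of the table was named Mir155, and the deletion could not be checked in these values.

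The upstream sequences of the 9 genes were read for features they share, in the 250 bases before each of their 15 RefSeq starts (GRCm38.p6). CpG counts ran from 2 to 51, the highest before Tet2 and the lowest before 1 of the 3 Dnmt1 starts. Of the 15, 14 held more CpGs than the median of 6 over 32851 promoters. An E2F motif, searched as TTTCGCGC, TTTGGCGC, TTTCCCGC or TTTGCCGC on both strands, lay before a start of 2 of the 9 genes, Dnmt1 and Uhrf1. E2F factors drive genes of the S phase of the cell cycle. The motif was found in 1.9% of all promoters and before a start of 3.1% of the tested genes with a promoter in the table. These shares were not matched to the 9 genes for CpG count or for the number of starts per gene, and the motif itself holds CpGs. Both windows are printed in the direction of the gene with the motif in capitals. In Dnmt1 it reads as the reverse complement. Each window precedes 1 start of its gene, out of 3 for Dnmt1 and 2 for Uhrf1, and lies downstream of the others.
Dnmt1, chr9:20952774-20952873, - strand: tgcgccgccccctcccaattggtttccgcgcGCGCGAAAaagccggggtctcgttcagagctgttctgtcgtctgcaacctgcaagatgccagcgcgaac
Uhrf1, chr17:56304082-56304181, + strand: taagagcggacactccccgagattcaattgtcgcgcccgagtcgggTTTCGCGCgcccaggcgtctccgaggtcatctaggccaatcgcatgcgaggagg
A match is a run of letters and not a site shown to be bound. The 250 bases before the starts of the other 7 genes held none of these letters.

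The arrays gave log2 expression values for 23332 rows, and array medians ran from 6.55 to 6.66. Such values carry no read depth, and the number of arrays limits the precision. The 5 stem and progenitor markers and the 9 granulocyte and monocyte progenitor markers all lay above 5.98, the 95th percentile of 718 olfactory receptor genes, which served as a background level. So did markers of other cells: 6 of 6 of mast cells and basophils, 4 of 4 of eosinophils, 5 of 6 of macrophages, 5 of 5 of platelets, 5 of 7 of stroma and endothelium, 3 of 4 of B cells, 2 of 4 of erythroid cells and 1 of 5 of T cells. The markers therefore include those of the labelled cells but do not separate them from other types at this level. The first principal component, with 37.2% of the variance, did not separate the genotypes: it placed miR-155 KO 1, miR-155 KO 2 and WT 2 on one side and miR-155 KO 3, WT 1 and WT 3 on the other. Wild-type titles carry no replicate number of their own, so those numbers follow the listing order. The design text calls the experiments independent but the labels do not tie arrays to animals. The spread of the arrays, on which the p-values rest, may thus be technical. The limma fit also draws each gene's variance towards one shared over all genes, so its intervals do not follow from the printed SDs alone. For Uhrf1 the standard error of the difference was 0.07, above both of its group SDs of 0.03 and 0.06. A test without this shared variance was not run. In bulk RNA, fewer cells of a type and less RNA per cell cannot be told apart.

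None of the 8 measured DNA methylation genes passed the test for a difference between the genotypes. By limma with Benjamini-Hochberg adjustment, 0 of 8 passed an adjusted p of 0.05 and 0 of 8 an unadjusted p of 0.05. Over all 14860 genes, 4 passed the adjusted test, all lower in the knockout, which is 0.0269%, and 7.23% had an unadjusted p under 0.05 (1.78% higher and 5.44% lower). All 8 genes were above the olfactory receptor level on average. The largest fitted difference was a 1.10-fold ratio for Uhrf1, knockout over wild type, and the 95% intervals of the 8 genes ran at most from 0.842-fold (Idh1) to 1.24-fold (Uhrf1). A missed threshold does not show equal levels: the intervals give the range of differences left by 3 arrays per group, and RMA can compress small ones.

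**Figure D1:**
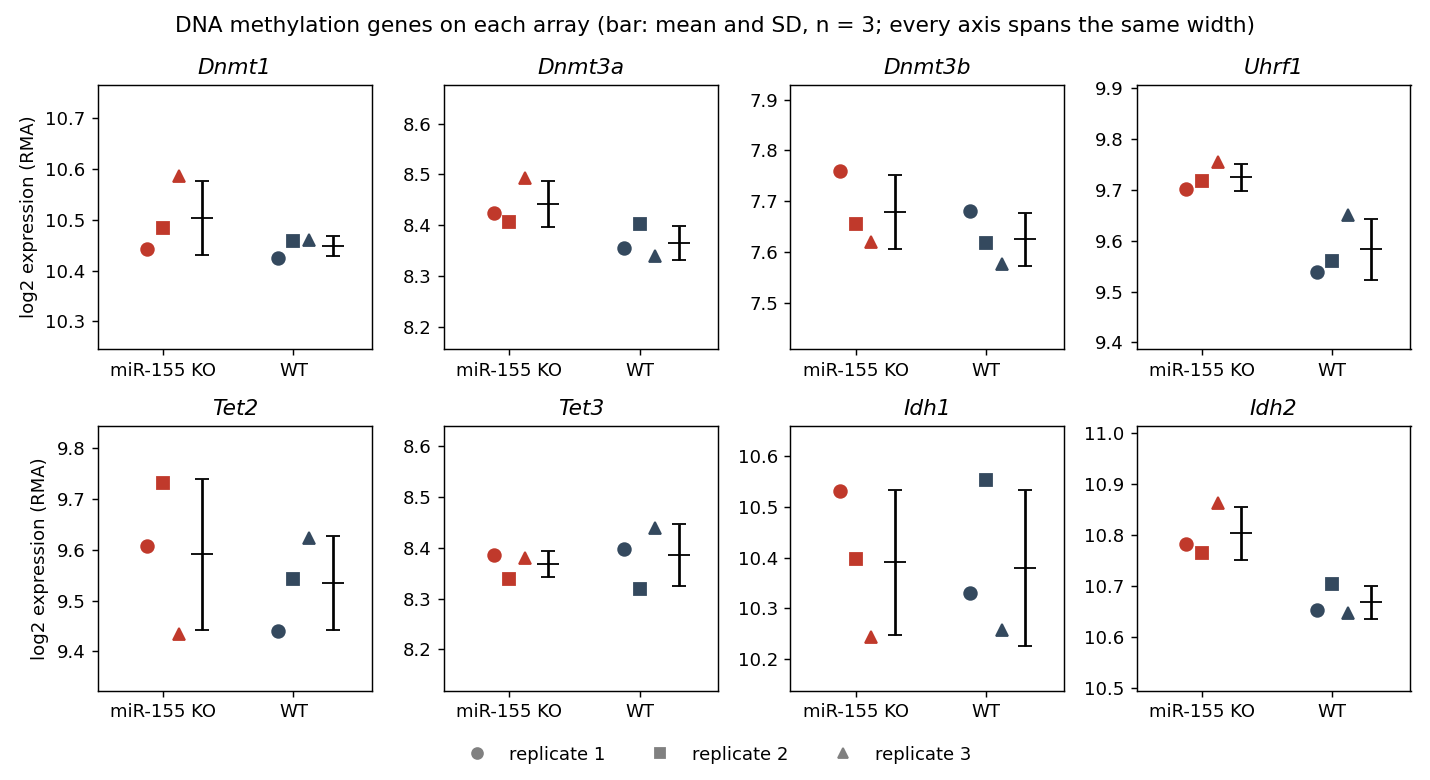
Log2 expression (RMA) of the 8 measured DNA methylation genes on each array, miR-155 KO in red on the left and WT in dark blue on the right of each panel, with a symbol per replicate and the mean and SD (n = 3) beside the points. The 3 knockout arrays lie above the 3 wild-type arrays for Dnmt3a, Uhrf1 and Idh2, and the groups overlap for the other 5 genes.

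Of the maintenance genes, Uhrf1 had groups that did not overlap and Dnmt1 had groups that did. Uhrf1 had log2 levels of 9.70, 9.72 and 9.75 on the knockout arrays, against 9.54, 9.56 and 9.65 on the wild-type arrays. Every knockout array lay above every wild-type array, with WT 3 the closest. The means were 9.72 ± 0.03 in KO cultures and 9.58 ± 0.06 in WT cultures (SD, n = 3 each), a log2 difference of 0.14 with a 95% interval from -0.02 to 0.31 (limma, adjusted p = 0.746, unadjusted p = 0.0815). Dnmt1, the methyltransferase that Uhrf1 brings to replicating DNA, had 10.44, 10.48 and 10.58 in the knockout, against 10.42, 10.46 and 10.46 in the wild type. Here miR-155 KO 3 was the one high array, miR-155 KO 2 lay just above the wild-type range and miR-155 KO 1 inside it. The means were 10.50 ± 0.07 in KO cultures and 10.45 ± 0.02 in WT cultures (SD, n = 3 each), a difference of 0.06 with an interval from -0.11 to 0.22 (limma, adjusted p = 0.915), and the difference was 0.0149 without miR-155 KO 3. These 2 are also the genes with the E2F motif shown above.

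The de novo methyltransferase genes had differences under 0.1 on the log2 scale. Dnmt3a had 8.42, 8.41 and 8.49 on the knockout arrays, against 8.36, 8.40 and 8.34 on the wild-type arrays. The groups did not overlap, although miR-155 KO 2 and WT 2 were 8.41 and 8.40. The means were 8.44 ± 0.05 in KO cultures and 8.37 ± 0.03 in WT cultures (SD, n = 3 each), a difference of 0.08 with an interval from -0.08 to 0.24 (limma, adjusted p = 0.874). Dnmt3b had 7.76, 7.66 and 7.62 in the knockout, against 7.68, 7.62 and 7.58 in the wild type, and the groups overlapped. Its difference was 0.05 with an interval from -0.12 to 0.23 (limma, adjusted p = 0.921), and the difference was 0.0121 without miR-155 KO 1. Dnmt3l, a catalytically inactive partner of both enzymes, had a level below the olfactory receptor background in both genotypes, at 5.67 ± 0.06 in KO cultures and 5.91 ± 0.13 in WT cultures (SD, n = 3 each).

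The 2 measured TET genes had overlapping groups. Tet2, the family member most often mutated in myeloid disease, had 9.61, 9.73 and 9.43 on the knockout arrays, against 9.44, 9.54 and 9.62 on the wild-type arrays. The knockout group held both the highest and the lowest array, so the groups overlapped fully. The means were 9.59 ± 0.15 in KO cultures and 9.53 ± 0.09 in WT cultures (SD, n = 3 each), a difference of 0.06 with an interval from -0.17 to 0.29 (limma, adjusted p = 0.939). Tet3 had 8.39, 8.34 and 8.38 in the knockout, against 8.40, 8.32 and 8.44 in the wild type. All 3 knockout values lay inside the range of the wild-type values. Its difference of -0.02, with an interval from -0.18 to 0.15, was the only one of the 8 below 0 (limma, adjusted p = 0.973), and it turned to 0.0171 with arrays centred on their medians.

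Of the isocitrate dehydrogenase genes, Idh2 separated the genotypes by rank and Idh1 did not. Idh2, the mitochondrial enzyme, had 10.78, 10.76 and 10.86 on the knockout arrays, against 10.65, 10.70 and 10.65 on the wild-type arrays. The groups did not overlap. The means were 10.80 ± 0.05 in KO cultures and 10.67 ± 0.03 in WT cultures (SD, n = 3 each), a difference of 0.14 with an interval from -0.03 to 0.30 (limma, adjusted p = 0.756, unadjusted p = 0.0896). Idh1, the cytosolic enzyme, had 10.53, 10.40 and 10.24 on the knockout arrays, against 10.33, 10.55 and 10.26 on the wild-type arrays. Its 3 highest arrays, miR-155 KO 1, miR-155 KO 2 and WT 2, were those on one side of the first principal component, and its 3 lowest were those on the other. The means were 10.39 ± 0.14 in KO cultures and 10.38 ± 0.15 in WT cultures (SD, n = 3 each), a difference of 0.01 with an interval from -0.25 to 0.27 (limma, adjusted p = 0.99). With the side of the first principal component in the model, its standard error was 0.0693, against 0.11 without it, and the difference was -0.07 (limma, adjusted p = 0.776).

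**Figure D2:**
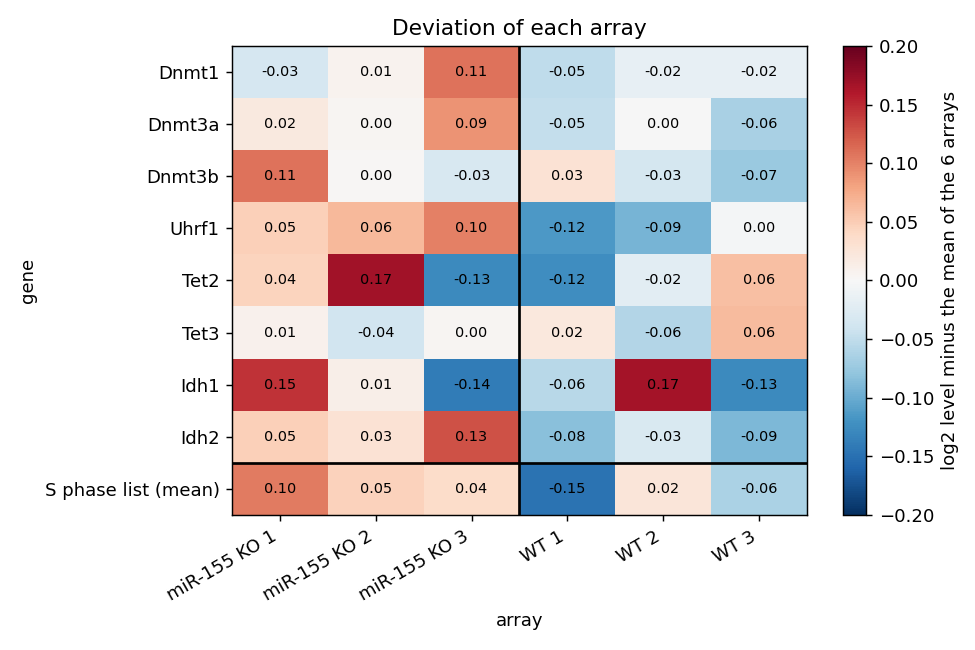
Deviation of each array (columns, miR-155 KO left of WT) from the gene's mean over the 6 arrays, in log2 units, for the 8 measured genes and for the mean of 21 S phase genes (bottom line). Uhrf1 and Idh2 are above 0 on every KO array and at or below 0 on every WT array, while Idh1 is high on miR-155 KO 1 and WT 2 and low on miR-155 KO 3 and WT 3.

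Read against the whole table, the 8 genes leaned to the knockout side by small amounts. Their median log2 difference was 0.06, against -0.03 over all genes tested, and 7 of 8 were above 0, against 39% of all genes. In 3 of the 8, Dnmt3a, Uhrf1 and Idh2, all knockout arrays lay above all wild-type arrays, against 2.88% of all genes, and in 0 of 8 they lay below, against 10.4%. Among the 5652 genes whose mean lay between those of the lowest and highest of the 8, 2.58% had the knockout arrays above and 42.3% a difference above 0. With arrays centred on their medians, 8 of 8 were above 0, against 51.1% of all genes, and the median was 0.0905, against 0.0033 over all genes. The same 3 of 8 then had all knockout arrays above, against 5.79% of all genes. After a further quantile normalization 8 of 8 were above 0, against 49.5% of all genes, and 6.39% of all genes had the knockout arrays above, while of the 8 Dnmt3a and Idh2 remained and Uhrf1 did not. The genes with an unadjusted p under 0.05 numbered 265 higher and 809 lower as deposited, 433 and 473 after centring, and 508 and 601 after quantile normalization. By the size of the difference regardless of sign, Uhrf1 ranked at percentile 74.2 of all genes, Idh2 at 72.5 and Idh1 at 7.1.

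**Figure D3:**
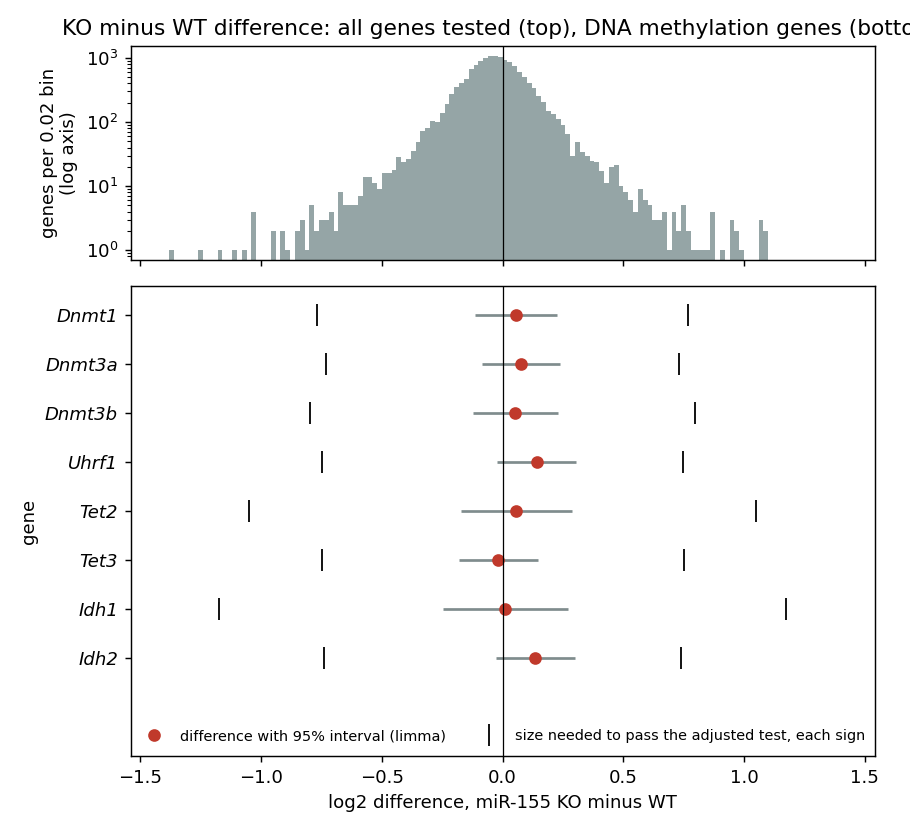
Top, number of genes (log axis) by log2 difference, miR-155 KO minus WT, for all 14860 genes tested. Bottom, the difference of each of the 8 DNA methylation genes with its 95% interval (limma) and, as black ticks, the size at which it would have passed the adjusted test, from 0.73 for Dnmt3a to 1.17 for Idh1, far outside every interval.

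The adjusted test would have called only differences well outside these intervals. At the p-value of the weakest gene that passed, Dnmt3a would have needed a log2 difference of 0.73, Uhrf1 0.75 and Idh1 1.17.

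Of the other genes that bind, guide or read DNA methylation, 15 of 18 listed were measured and 0 passed the adjusted test. An unadjusted p under 0.05 was reached by 3 on the lower and 0 on the higher side, against 5.44% and 1.78% of all genes. These counts are for the values as deposited. Mbd3, a NuRD subunit of the methyl-CpG binding family, averaged 9.01 ± 0.09 in KO cultures and 9.20 ± 0.05 in WT cultures (SD, n = 3 each; limma, adjusted p = 0.678). Zfp57, which protects methylation at imprinted regions, averaged 9.15 ± 0.11 in KO cultures and 9.38 ± 0.13 in WT cultures (SD, n = 3 each; limma, adjusted p = 0.69). The third was Dnmt3l. Hells, a chromatin remodeller needed for methylation, averaged 8.84 ± 0.19 in KO cultures and 8.56 ± 0.27 in WT cultures (SD, n = 3 each; limma, adjusted p = 0.769), with the groups overlapping. In 6 of the 15 all knockout arrays lay below all wild-type arrays and in 0 above, against 10.4% and 2.88% of all genes. The 6 depended on the scaling: 1 of the 15 lay below with arrays centred on their medians, against 5.52% of all genes, and 2 after a further quantile normalization, against 6.57%. The list's median difference was -0.03, equal to that of all genes tested to 2 decimals.

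Of 12 measured genes of demethylation and base excision, 0 passed the adjusted test. An unadjusted p under 0.05 was reached by 0, against 7.23% of all genes. The 4 with the smallest p were Smug1 and Xrcc1, of base excision repair, Apobec1, a cytidine deaminase, and Gadd45a, a stress-response gene, with differences of -0.12, -0.07, -0.15 and 0.11. Of these, Smug1 lay below the background level. The groups overlapped for all 12 genes, where 13.3% of all genes had groups that did not overlap. The list's median difference was -0.03.

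Enzymes of the TCA cycle, listed together with others that make or use 2-oxoglutarate, gave no call. Of 20 measured, 0 passed the adjusted test, and the median difference was 0.02. An unadjusted p under 0.05 was reached by 1 on the higher and 2 on the lower side, against 1.78% and 5.44% of all genes. The groups did not overlap for 2 on the higher and 2 on the lower side, against 2.88% and 10.4% of all genes. Got1, an aspartate aminotransferase that converts 2-oxoglutarate to glutamate and back, averaged 10.45 ± 0.07 in KO cultures and 10.65 ± 0.05 in WT cultures (SD, n = 3 each; limma, adjusted p = 0.623). Bcat1, a branched-chain aminotransferase that also uses 2-oxoglutarate, averaged 8.59 ± 0.14 in KO cultures and 8.81 ± 0.03 in WT cultures (SD, n = 3 each; limma, adjusted p = 0.645). Suclg1, a subunit of succinyl-CoA ligase, the TCA cycle enzyme that turns succinyl-CoA into succinate, averaged 9.51 ± 0.04 in KO cultures and 9.28 ± 0.15 in WT cultures (SD, n = 3 each; limma, adjusted p = 0.666). Idh3a, of the NAD-dependent isocitrate dehydrogenase, differed by 0.23 with overlapping groups. The genes that supply methyl groups, those of the S-adenosylmethionine and folate cycles, gave 0 of 13 past the adjusted test. At an unadjusted p under 0.05 there were also 0 of 13, against 7.23% of all genes. Differences ran from -0.13 for the folate carrier gene Slc19a1 to 0.09 for Mat2b. Mat1a and Shmt1 were the other 2 with the smallest p, with differences of -0.07 and 0.07, Mat1a at a level below background.

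S phase genes were listed because Dnmt1 and Uhrf1 act at replication. Of 21 measured, 18 had a difference above 0, against 39% of all genes, and the median was 0.13. None passed the adjusted test, and an unadjusted p under 0.05 was reached by 3 on the higher and 0 on the lower side, against 1.78% and 5.44% of all genes. In 2 of the 21 all knockout arrays lay above all wild-type arrays, against 2.88% of all genes, but in 8 with arrays centred on their medians, against 5.79%, and in 8 after quantile normalization, against 6.39%. Cdt1, a replication licensing factor, averaged 9.43 ± 0.03 in KO cultures and 9.17 ± 0.02 in WT cultures (SD, n = 3 each; limma, adjusted p = 0.453, unadjusted p = 0.00502), with no overlap. Gins1, a subunit of the replicative helicase, differed by 0.22, also with no overlap. Ccne1, the cyclin of S phase entry, differed by 0.26 and Pola1, of DNA polymerase alpha, by 0.31, both with overlapping groups. Pola1 was not among the 3 (limma, unadjusted p = 0.0556). The lowest difference in the list was -0.08. The mean of the 21 genes was 9.15, 9.09 and 9.08 on the knockout arrays, against 8.90, 9.07 and 8.98 on the wild-type arrays, so WT 1 was the low one. Without WT 1 the list's median was 0.07. Uhrf1 was also lowest on WT 1, and its difference was 0.12 without that array. Its highest wild-type array was WT 3, while that of the S phase mean was WT 2. Correlations with the S phase mean over the 6 arrays, which share their scaling, are given as a description. They were 0.75 for Idh2, 0.68 for Dnmt3a, 0.67 for Uhrf1 and 0.51 for Idh1. Tet2 had 0.41, Dnmt1 0.35, Dnmt3b 0.34 and Tet3 -0.47. The S phase mean was itself higher on every knockout array than on any wild-type array, so these correlations include the difference between genotypes. They were not taken within each genotype. The part of cell cycle in the values of these genes was not tested. Of the 17 S phase genes with a promoter listed, 5 had an E2F motif before a start, against 3.1% of all tested genes with a promoter. They were Cdc6, Mcm5, Mcm6, Mcm7 and Pola1. The share was again not matched for CpG count or number of starts.

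**Figure D4:**
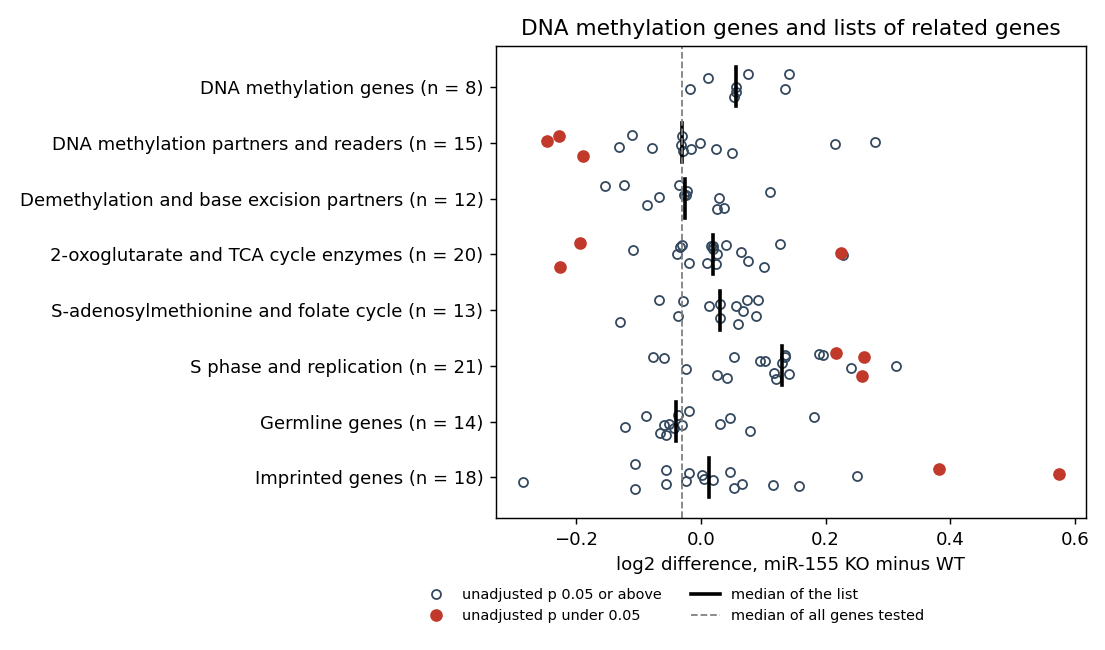
Log2 difference, miR-155 KO minus WT, of each gene in the set and in the 7 lists of related genes, with filled red points for an unadjusted p under 0.05, a black bar for the list's median and a dashed line for the median of all genes tested. The S phase list has the highest median, 0.13, and the 2 points farthest right are the imprinted genes Dlk1 and Airn.

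Classes of genes known for silencing by DNA methylation were listed beside the enzymes. Of 14 measured germline genes whose promoters are methylated in somatic cells, 12 lay below the olfactory receptor level. The adjusted test was passed by 0, and the unadjusted test by 0, against 7.23% of all genes. Dazl, a germ cell RNA-binding protein gene, averaged 3.68 in KO cultures and 3.72 in WT cultures. Sycp3, of the meiotic chromosome axis, averaged 2.13 in KO cultures and 2.17 in WT cultures. The 4 with the smallest p, Tex101, Taf7l, Stk31 and Tex11, differed by -0.12, -0.09, 0.08 and -0.06. Of 18 measured genes listed as imprinted, 9 lay below that level and 0 passed the adjusted test. Imprinting, the expression from a single parental copy, depends on methylation but was not measured here for any of them. An unadjusted p under 0.05 was reached by 2 on the higher and 0 on the lower side, against 1.78% and 5.44% of all genes. Dlk1, an imprinted Notch-family ligand gene, had 7.92, 8.54 and 8.01 on the knockout arrays, against 7.70, 7.38 and 7.67 on the wild-type arrays. The groups did not overlap, and the fold ratio was 1.49, knockout over wild type, with an interval from 1.12 to 1.98 (limma, adjusted p = 0.538, unadjusted p = 0.0128). Airn, a noncoding RNA that runs antisense to Igf2r and silences it on the paternal copy, had 5.78, 5.86 and 5.68 in the knockout, against 5.10, 5.50 and 5.58 in the wild type, below the background level in both (limma, adjusted p = 0.596). Igf2r averaged 6.59 ± 0.14 in KO cultures and 6.88 ± 0.23 in WT cultures (SD, n = 3 each), with overlapping groups (limma, adjusted p = 0.73). The sources used here do not say whether the probes of these 2 overlapping genes read only their own strand. Magel2, the other of the 4 imprinted genes with the smallest p, differed by 0.25 at a level below background. Methylation itself was not measured on these arrays.

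The genes most like 3 of the set across the 6 arrays were looked up by Pearson correlation among 9822 genes above the background level, as a description. For Idh1, which had the widest range of the 8 at 0.31 log2 units, these were Fancl (r = 0.999), Tlk2 (r = 0.998) and Ints4 (r = 0.998), and 828 genes had r above 0.9, so that its pattern was shared by many. For Tet2, with a range of 0.30, they were Smox (r = 0.991), Inpp4a (r = 0.979) and Lmbr1l (r = 0.974), with 25 genes above 0.9. For Idh2, with a range of 0.22, they were Ube4b (r = 0.984), Adgrl1 (r = 0.977) and Dnmt3a (r = 0.973), with 41 genes above 0.9. Dnmt3a and Idh2 put the 6 arrays in the same order. All of these values come from the same 6 arrays and share their scaling, and a best match among 9822 genes over 6 arrays is high by selection.

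For 3 of 11 lists of cell type markers the summed levels of the groups did not overlap. The summed linear level of 5 measured megakaryocyte and platelet markers was 2385 to 2538 in KO cultures and 1833 to 2075 in WT cultures, and that of 6 macrophage markers 2959 to 3586 in KO cultures and 3928 to 4533 in WT cultures. All 5 measured platelet markers and 5 of 6 macrophage markers lay above the background level. The platelet markers did not all differ: Selp (0.602), Ppbp (0.493) and Gp9 (0.226) were higher in the knockout without overlap. Pf4 (0.126) and Itga2b (0.0064) had overlapping groups. Of the macrophage markers, Adgre1 averaged 9.70 in KO cultures and 10.52 in WT cultures, without overlap. C1qb, at 7.20 in KO and 7.78 in WT cultures, and C1qa, below the background level, were also lower without overlap. Over all genes, 2.88% were higher and 10.4% lower without overlap. Cd68, Marco and Mrc1 overlapped, with Mrc1 at 7.86 in both groups. The sum without Adgre1 was not taken. For the 9 granulocyte and monocyte progenitor markers the sums overlapped, at 41198 to 44013 in KO cultures and 40388 to 41446 in WT cultures. The third list without overlap was that of 4 measured B cell markers, 3 of them above the background level, at 314.5 to 356.3 in KO cultures and 258.3 to 312.6 in WT cultures. Among these 4, Cd79b averaged 7.56 in KO cultures and 7.23 in WT cultures, while Pax5 lay the other way without overlap, at 6.05 in KO cultures and 6.13 in WT cultures. A sum of linear levels follows its brightest markers most, so overlapping sums do not show that each marker was alike. In the mast cell and basophil list Fcer1a differed by 0.98 without overlap (limma, unadjusted p = 0.00194), and Prss34 by -0.47 with overlap. In the eosinophil list Epx differed by -0.78 and Prg2 by -0.55, both with overlap, and Siglecf by 0.29 without overlap. None of these markers passed the adjusted test, and their part in the values of Uhrf1, Idh2 and Dnmt3a was not tested.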

How the data were processed

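RNA from 3 miR-155 KO and 3 WT cultures had been hybridised to whole-transcript Affymetrix arrays. What was deposited are log2 values, background-corrected, normalized between arrays and summarised by RMA. Per the submitters' processing notes, the tool was Affymetrix Expression Console. The sources used here give no version, settings or genome build. Of 23332 rows, 14996 had 1 gene symbol, 1019 several and 7317 none in the platform annotation, and the brightest row per gene left 14860 genes. The 2 genotypes were compared by limma 3.58.1 under R 4.3.3 (lmFit, eBayes, no filter), two-sided, with Benjamini-Hochberg adjustment over all genes at 0.05. An exact permutation test of 3 against 3 cannot give a p below 0.1 and was not used. Differences are knockout minus wild type.

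The 9 genes and the 7 lists of related genes were chosen with earlier results of these data known. The text names the 9 genes, up to 4 genes per list with the smallest unadjusted p, and the 3 genes most correlated with each of the 3 genes of widest range. Dazl and Sycp3 were named after their values were seen. Alternatives were other scalings, array weights, filters on level, row choices, variance models, the principal component side as a block, and leaving out each array. On simulated data with 14860 genes the fit recovered 45.2% of genes changed by 0.5 log2 units and 87.2% at 1. False calls were 4.55%, where 200 genes were changed at once. In the real table only 4 genes passed, and the 8 genes needed fitted differences from 0.73 (Dnmt3a) to 1.17 (Idh1). The recovery at 0.5 therefore does not apply to them. Sequences are RefSeq's (GRCm38.p6), with all 9 genes matched. Python 3.11.15 with matplotlib 3.10.9 drew the figures.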

Additional observations from a re-analysis of the deposited data

How the results depend on the processing

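None of the 8 genes passed the adjusted test under any of 16 alternatives or at an adjusted p of 0.1, with adjusted p-values from 0.352 to 1. Dnmt1, Dnmt3a, Dnmt3b, Uhrf1 and Idh2 kept a difference above 0 in all 16, but with 1 array left out Dnmt1 (0.0557) ran from 0.0149 to 0.0862, Dnmt3b (0.053) from 0.0121 to 0.0822 and Dnmt3a (0.076) from 0.0502 to 0.0942. Tet2 turned below 0 only without miR-155 KO 2, its values running from -0.0135 to 0.134 with 1 array left out, and was 0.1562 with array weights and 0.0155 with the principal component side as a block, against 0.0564. Tet3 was 0.0171 after median centring, 0.0072 after quantile normalization, 0.0024 with that block, and between -0.0507 and 0.0097 with 1 array left out. Idh1 was -0.0686 with that block and between -0.0589 and 0.0971 with 1 array left out. The cause was not tested. The median of the 8 genes lay between 0.056 and 0.0905. Over all genes, those higher and lower past the adjusted test numbered 0 and 4, against 5 and 11 with array weights, 3 and 11 above the median level, 4 and 9 above the olfactory receptor level, 1 and 8 with a variance trend, 1 and 3 with the block, 0 and 0 when all rows were tested, and 2 and 10 at an adjusted p of 0.1. With 1 array left out they numbered 0 to 1 and 0. The medians of the demethylation list (-0.03) and of all genes (-0.03) were 0.009 and 0.0033 after median centring, and that of the imprinted list (0.01) was -0.0591 without miR-155 KO 3. No paired analysis was possible because the wild-type titles carry no replicate number of their own. The 3 arrays per group limit the precision.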
